A study of Mus musculus with 18 samples.

Results

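The hepatic transcripts of 10 genes that build plasma lipoproteins or travel on them were followed in mice given asparaginase (ASNase) or phosphate buffered saline (PBS). The genes were Apob, Mttp, Apoa1, Apoa2, Apom, Apoa4, Apoa5, Apoc1, Apoc2 and Apoc3. They were chosen by symbol, and each matched 1 of the 37303 genes of the deposited table. The 18 livers fell into 6 groups of 3 mice. Wild type (WT) mice, mice lacking both copies of Gcn2 (Gcn2-/-) and mice lacking both copies of Atf4 (Atf4-/-) each received PBS or ASNase, a bacterial enzyme used in leukaemia therapy that depletes circulating asparagine and glutamine. Injections were intraperitoneal at 3 IU per g body weight, once daily on 8 days, and livers were taken 7.5 h after an injection. All mice were of the C57BL/6J background and aged 8 to 12 weeks in the protocol, or 8 to 16 weeks in the sample labels. The deletions were present in every tissue, so the liver was not the only organ without the protein. Males were 1 of the 3 mice in the WT PBS, Gcn2-/- PBS and Gcn2-/- ASNase groups and 2 of the 3 in the other groups. In comparisons between groups of unequal sex ratio, sex and the named factor cannot be told apart.

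Lipoproteins carry triglyceride and cholesterol through the blood. In the liver, microsomal triglyceride transfer protein (encoded by Mttp) loads lipid onto apolipoprotein B to form very low density lipoprotein (VLDL). Apolipoproteins A-I and A-II form the protein scaffold of high density lipoprotein (HDL), whereas the C apolipoproteins and apolipoprotein A-V set how fast lipoprotein lipase clears triglyceride. GCN2 is a kinase that senses uncharged tRNA when amino acids run short, and ATF4 is the transcription factor whose synthesis is favoured when GCN2 phosphorylates the initiation factor eIF2.

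The table gives 1 value per gene and group, in FPKM (sequenced fragments scaled to transcript length and to library size), which Cuffdiff estimated from the 3 libraries of a group together with a lower and an upper bound whose confidence level is not stated in the table. It holds no value of a single mouse, so no test between groups was possible, no p-value is given, and the bounds stand in for the replicate error. All 60 values of the 10 genes had the status OK. By contrast Apoe, the neighbouring apolipoprotein gene, had no estimate and was listed at 0 in the WT PBS, WT ASNase and Gcn2-/- PBS groups, and albumin (Alb) had none in any group. The status of these values was HIDATA, Cuffdiff's label for a locus with too many fragments to process. The bounds of the 10 genes were wide. The distance from the value to its upper bound ran from 46.0% to 182% of the value, with a median of 68.6%, where the median over all genes above 3 FPKM was 51.3% to 54.2% by group. The lower bound was 0 for 12 of the 60 values. These lay in 4 genes, and Apob had a lower bound of 0 in all groups.

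Values of other genes bear on how the groups can be read. Of the 10 hepatocyte markers, Alb and Trf had no estimate in any group, Fgb had none in Gcn2-/- ASNase and Atf4-/- ASNase livers and Serpina1a none in Atf4-/- PBS livers, and the other 6 had 357 to 8233 FPKM. Eif2ak4, which encodes GCN2, had 2.31 and 2.96 FPKM in the Gcn2-/- groups and 2.19 to 3.14 FPKM in the other groups, and a value over the whole gene does not show a deleted exon. Atf4 had 32.3 and 29.3 FPKM in the Atf4-/- groups against 50.4 to 68.1 FPKM elsewhere. The skeletal muscle markers summed to 802 and 1147 FPKM in the WT groups and to 10.4 to 145 FPKM in the other groups. The 10 pancreatic acinar markers summed to 72.5 FPKM in WT ASNase and 383 FPKM in Atf4-/- ASNase livers, and to 5.47 to 16.1 FPKM elsewhere. Acute phase genes with an estimate summed to 58282 FPKM in Gcn2-/- ASNase and 54719 FPKM in Atf4-/- ASNase livers, against 7926 to 25591 FPKM in the other groups, although 4 of the 12 had no estimate in those ASNase groups. The part of these differences in the values below was not tested. In whole liver, fewer hepatocytes and less RNA per hepatocyte cannot be told apart.

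The genes lie at 6 sites of the mouse genome (GRCm38, the build of the files, with GENCODE M21 positions). Apoa1 (chr9:46228580-46230466, plus strand), Apoc3 (chr9:46232933-46235636, minus strand), Apoa4 (chr9:46240696-46243459, plus strand) and Apoa5 (chr9:46268633-46271919, plus strand) stand in this order in a cluster of 43.3 kb. Apoc2 (chr7:19671579-19677941) and Apoc1 (chr7:19689481-19692660) are both on the minus strand of chromosome 7, within 21.1 kb, next to Apoc4 and Apoe. Apob (chr12:7977648-8016835, plus strand), Mttp (chr3:138089854-138144968, minus strand), Apoa2 (chr1:171225054-171226379, plus strand) and Apom (chr17:35128997-35132050, minus strand) stand alone. All 10 are protein-coding. The library kit does not mark strand, so reads of Apoa4 and of Gm10680, an antisense gene over its 3′ end (chr9:46242621-46243529, minus strand), cannot be told apart. The same limit holds for Apoa5 with Gm47544, for Mttp with Gm43691 and Trmt10a, and for Apoa4 with Gm47528. Apoc2 is overlapped on its own strand by Gm44805, a protein-coding gene model, so their reads cannot be told apart either. The file gives Apoc2 and Apoc4 a single shared locus.

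RefSeq windows from 250 bases before to 50 bases after the start (build GRCm38.p6) were available for 8 of the 10 genes, all but Apoc1 and Apoc3. For 5 of them the RefSeq start lay inside the GENCODE gene given above, by 29 (Apob), 50 (Apoa1), 148 (Apoa4), 249 (Apom) and 1550 bases (Mttp). More of these windows, and all of that of Mttp, thus lay within the gene, and a window is not in each case sequence before the gene. The bases before every annotated start are shown for 4 genes picked after their values were seen: Apoa1 and Apoa4, neighbours that differed in direction, Apoa2, which had its lowest value in the Atf4-/- ASNase livers, and Apoc2, whose value was higher there though within its error. They are Apoa1 at chr9:46228380-46228579, Apoa4 at chr9:46240594-46240695 and Apoa2 at chr1:171224804-171225053, on the plus strand, and Apoc2 at chr7:19677942-19678191, on the minus strand, each written 5′ to 3′. Capitals mark a match to one of 5 short motifs searched on both strands.
Apoa1: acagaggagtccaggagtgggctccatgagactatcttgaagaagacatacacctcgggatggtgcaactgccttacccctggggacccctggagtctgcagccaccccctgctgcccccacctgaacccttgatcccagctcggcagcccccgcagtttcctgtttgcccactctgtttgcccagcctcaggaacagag
Apoa4: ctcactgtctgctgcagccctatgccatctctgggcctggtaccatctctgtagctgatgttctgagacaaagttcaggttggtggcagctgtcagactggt
Apoa2: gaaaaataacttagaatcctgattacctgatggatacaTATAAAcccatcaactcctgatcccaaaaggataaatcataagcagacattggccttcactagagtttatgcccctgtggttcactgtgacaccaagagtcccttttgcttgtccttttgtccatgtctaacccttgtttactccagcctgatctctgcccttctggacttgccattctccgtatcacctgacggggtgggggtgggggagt
Apoc2: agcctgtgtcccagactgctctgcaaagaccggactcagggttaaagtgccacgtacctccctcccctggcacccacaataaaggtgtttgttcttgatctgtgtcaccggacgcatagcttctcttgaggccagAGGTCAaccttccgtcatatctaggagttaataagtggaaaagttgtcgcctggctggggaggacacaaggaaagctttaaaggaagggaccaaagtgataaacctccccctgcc
TGATGNAA, the core of the composite C/EBP-ATF element that ATF4 binds, matched in none of the 8 windows and in 3.97% of all 32851 windows of the table. CAAAGTCCA, an HNF4 type site, also matched in none of them and in 0.475% of all. TGACGT, the core of a cAMP response element, matched in 1 (Mttp) and in 7.51% of all. AGGTCA, the core hexamer of nuclear receptor sites, matched in 1 and in 16.3% of all: that window was Apoc2, where it began at position −115 relative to the start and again at 43. TATAAA, the letters of a TATA box, matched in 3 (Apoa2, Apoa5 and Apob) and in 13.6% of all. It began at position −212 in Apoa2, −56 in Apoa5 and −60 in Apob. Whether any of these matches acts as a TATA box was not tested. A missing match says only that these letters are not in the window.

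In WT PBS livers the 10 transcripts ranged from 39.7 FPKM for Apoa4 to 17967 FPKM for Apoa2. Apoa2 ranked 2 among all genes with an estimate, and 4 of the genes exceeded 1000 FPKM (Apoa1, Apoa2, Apoc1 and Apoc3). The 10 genes together made 5.89% of the summed FPKM of all genes in WT PBS, 5.60% in Gcn2-/- PBS and 5.03% in Atf4-/- PBS livers. After ASNase the WT share was 5.05%, the Gcn2-/- share 3.91% and the Atf4-/- share 1.68%. This last share was the lowest of the 6 groups, and there none of the 10 stood among the 10 most abundant estimates, where 2 or 3 stood in each other group. Shares depend on the other genes too, and the genes with an estimate differ between groups: Alb has none in any group, and Apoe enters the sum only in Gcn2-/- ASNase, Atf4-/- PBS and Atf4-/- ASNase livers, at 11743, 17557 and 8485 FPKM. Genes left out for too many fragments would lower the shares if counted, and could lower the ranks.

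**Figure D1:**
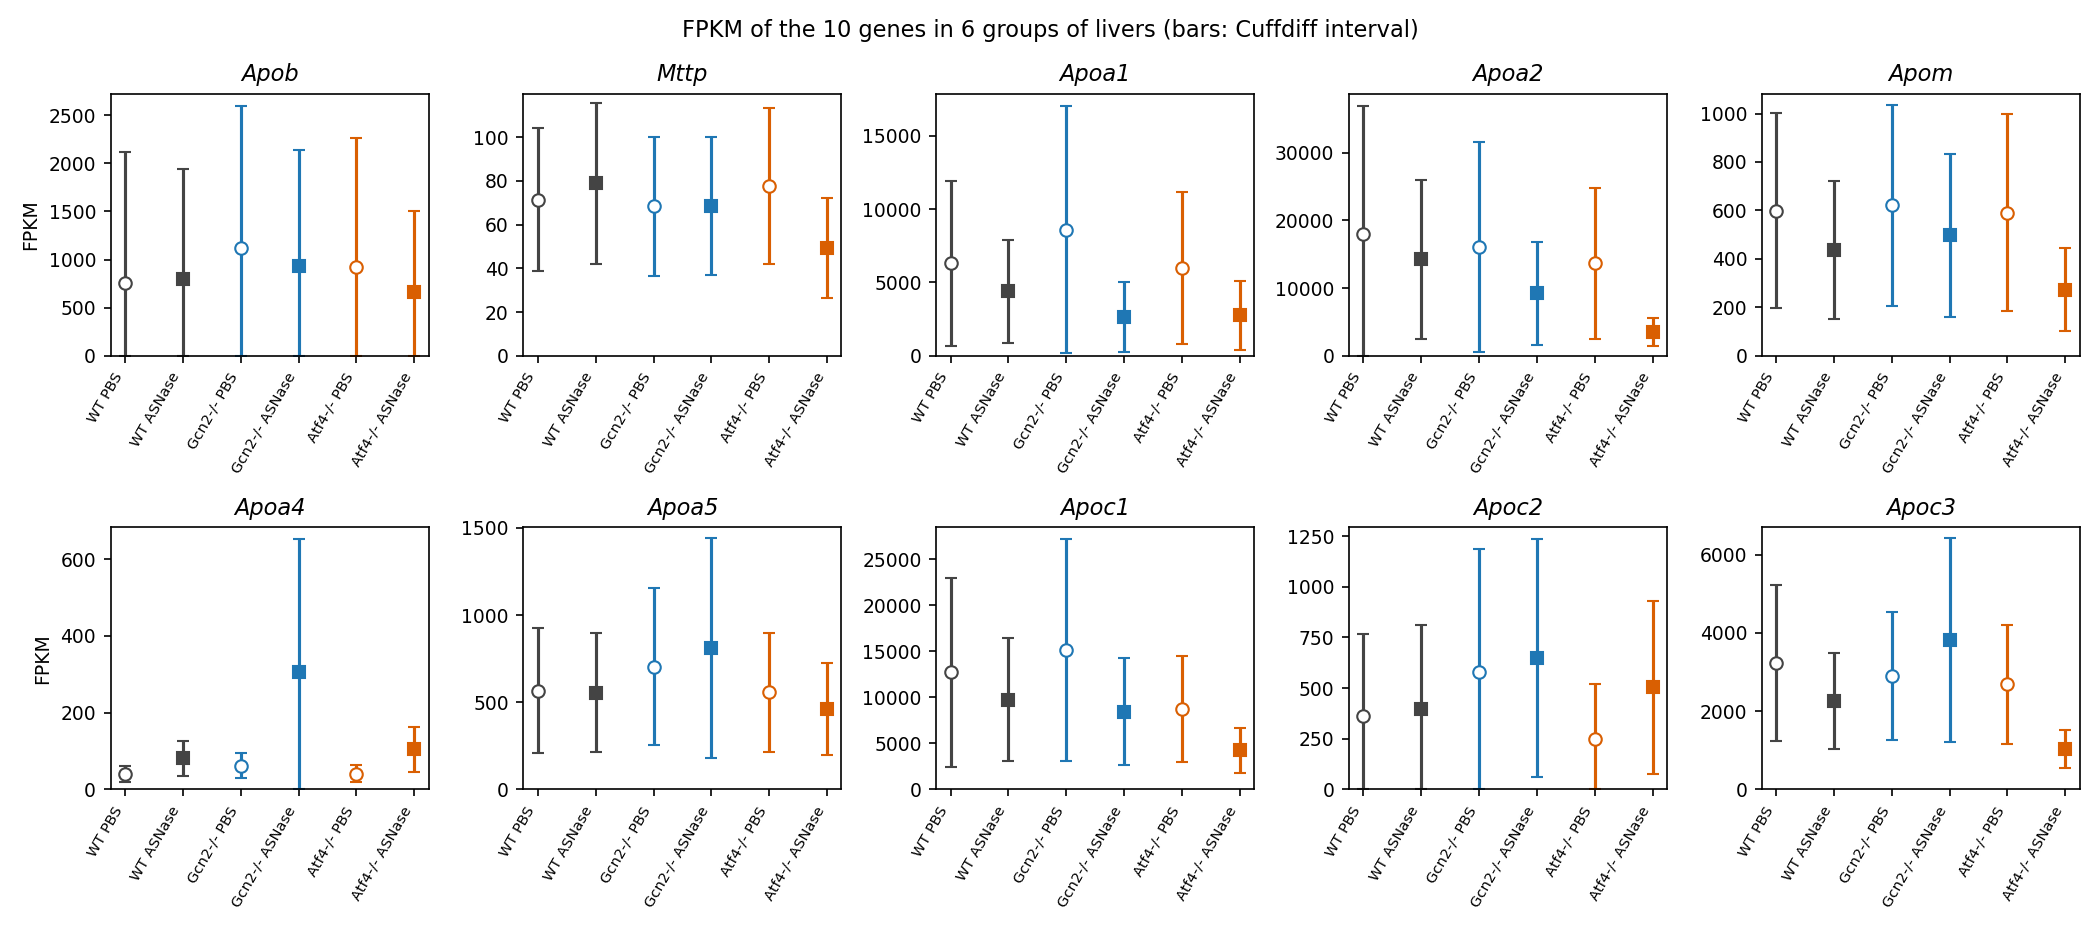
FPKM (linear axis from 0) of each of the 10 genes in the 6 groups, with open circles for PBS, filled squares for ASNase, and bars for Cuffdiff's lower and upper bound. The intervals of every pair of groups overlap for every gene, while Apob, Mttp, Apoa2, Apom, Apoa5, Apoc1 and Apoc3 have their lowest value in the Atf4-/- ASNase group and Apoa4 its highest in the Gcn2-/- ASNase group.

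Differences are given on the log2 scale of FPKM + 0.1, with a combined error, the root of the summed squares of each group's distance from value to upper bound on that scale. Where it matters, a larger error is given too, with that distance taken as a share of the value. A gene was eligible where both groups had an estimate above 0 and either exceeded 3 FPKM, which all 10 were in every comparison. A gene was called when the log2 difference exceeded 1.5 in size and the intervals did not overlap. None of the 150 pairs of groups over the 10 genes had intervals apart, so none of the 10 was called in any of the 7 comparisons. Among all eligible genes the called share was 0.881% for ASNase against PBS in WT livers, 3.69% in Gcn2-/- and 7.37% in Atf4-/- livers. It was 1.04% for Gcn2-/- PBS and 1.12% for Atf4-/- PBS livers against WT PBS, and 4.41% for Gcn2-/- ASNase and 8.25% for Atf4-/- ASNase livers against WT ASNase. A less strict rule, a difference above 1.5 that also exceeds its combined error, passed 1.20% of genes in WT, 6.11% in Gcn2-/- and 11.3% in Atf4-/- livers for ASNase against PBS. It passed 1.79% in both PBS comparisons, and 7.16% and 12.5% for Gcn2-/- and Atf4-/- against WT under ASNase. What follows describes values and their errors, and the less strict rule is named wherever it is used.

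Mttp, the lipid loader of VLDL assembly, had 71.5 FPKM (38.6 to 104) in WT PBS and 78.8 (42.2 to 115) in WT ASNase livers, 68.3 (36.7 to 99.98) and 68.5 (36.8 to 100.2) in Gcn2-/- PBS and ASNase livers, and 77.6 (41.8 to 113) and 49.4 (26.6 to 72.2) in Atf4-/- PBS and ASNase livers. Its lowest value was thus in the Atf4-/- ASNase group, with a log2 difference from Atf4-/- PBS of −0.65 and a combined error of 0.77. The Gcn2-/- difference was 0.00 with a combined error of 0.78. Over the 6 groups Mttp spanned 0.67 on the log2 scale, the narrowest of the 10 genes.

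Apob, which encodes the structural protein of VLDL, had 753 FPKM (0 to 2121) in WT PBS, 801 (0 to 1943) in WT ASNase, 1124 (0 to 2595) in Gcn2-/- PBS, 931 (0 to 2139) in Gcn2-/- ASNase, 927 (0 to 2264) in Atf4-/- PBS and 662 (0 to 1506) in Atf4-/- ASNase livers. No order of the groups can be read from intervals that all start at 0. Its ASNase differences were 0.09 in WT, −0.27 in Gcn2-/- and −0.49 in Atf4-/- livers, with combined errors of 1.70 to 1.97. The ratio of Apob to Mttp, the transcript of the carrier to that of its lipid loader, lay between 10.2 and 16.4 in the 6 groups.

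Apoa1, Apoa2 and Apom had lower values after ASNase in every strain, most of them within their combined errors. Apoa1, encoding the main HDL protein and activator of the cholesterol-esterifying enzyme LCAT, had 6291 FPKM (688 to 11893) in WT PBS and 4386 (869 to 7903) in WT ASNase livers. It had 8602 (168 to 17035) in Gcn2-/- PBS and 2657 (269 to 5045) in Gcn2-/- ASNase livers, and 5980 (796 to 11164) and 2757 (399 to 5115) in Atf4-/- PBS and ASNase livers. The 3 ASNase values were below the 3 PBS values, and all intervals overlapped. The log2 difference was −0.52 in WT livers (combined error 1.25), −1.69 in Gcn2-/- livers (1.35) and −1.12 in Atf4-/- livers (1.27). In the Gcn2-/- livers it passed the less strict rule, though not with the error taken as a share of the value (1.92), and the value after ASNase was 0.309 of that with PBS.

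Apoa2, the second HDL protein by abundance, had 17967 FPKM (0 to 36886) in WT PBS, 14235 (2537 to 25932) in WT ASNase, 16076 (539 to 31613) in Gcn2-/- PBS and 9229 (1611 to 16848) in Gcn2-/- ASNase livers. In Atf4-/- livers it had 13637 (2490 to 24784) with PBS and 3546 (1472 to 5621) with ASNase. The last value was 0.260 of its PBS control and lay below every other group, and its upper bound lay below the values of the other groups but above their lower bounds. The log2 difference was −0.34 in WT (combined error 1.35), −0.80 in Gcn2-/- (1.31) and −1.94 in Atf4-/- livers (1.09), and the last passed the less strict rule. Against WT ASNase livers, Atf4-/- ASNase livers differed by −2.0 (1.09), which passed it too.

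Apom, whose product carries sphingosine-1-phosphate on HDL, had 598 FPKM (196 to 1001) in WT PBS, 435 (151 to 720.03) in WT ASNase, 621 (206 to 1036) in Gcn2-/- PBS, 497 (160.3 to 834) in Gcn2-/- ASNase, 591 (184 to 997) in Atf4-/- PBS and 273 (101 to 444) in Atf4-/- ASNase livers. The PBS groups were within a narrow band and the Atf4-/- ASNase group was lowest. Its ASNase difference was −0.46 in WT (combined error 1.04), −0.32 in Gcn2-/- (1.05) and −1.11 in Atf4-/- livers (1.03).

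Apoa4 differed in the other direction. It encodes apolipoprotein A-IV, a protein of HDL and triglyceride-rich particles that liver makes in varying amounts and the small intestine makes abundantly. Its values were 39.7 FPKM (17.8 to 61.7) in WT PBS and 80.6 (34.5 to 127) in WT ASNase, 60.8 (28.3 to 93.3) in Gcn2-/- PBS and 306 (0 to 651) in Gcn2-/- ASNase, and 40.4 (18.2 to 62.7) in Atf4-/- PBS and 105 (46.2 to 164) in Atf4-/- ASNase livers. All 3 ASNase values were above all 3 PBS values, with overlapping intervals. The log2 difference was 1.02 in WT (combined error 0.91), 2.33 in Gcn2-/- (1.25) and 1.37 in Atf4-/- livers (0.90), that is an FPKM ratio of 2.03, 5.04 and 2.59. It exceeded the combined error in each strain, though not in WT livers with the error taken as a share of the value (1.15), and in Gcn2-/- livers it passed the less strict rule.

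The Gcn2-/- ASNase value of Apoa4 is also the least certain of the 6, with a lower bound of 0, and without values of single mice it cannot be seen whether 1 mouse carried it. Gm10680, the antisense gene over its 3′ end, had 71.0, 138, 108, 546, 60.3 and 178 FPKM in the same order of groups as above. Its profile was the one most like that of Apoa4 among all genes compared. Of 10 marker genes of the intestinal epithelium, 7 were at most 0.251 FPKM in every group (Vil1, Cdx1, Cdx2, Lct, Sis, Cdh17 and Muc2), and Cdx1 was listed at 0 throughout. Rbp2 reached 1.86 FPKM in WT ASNase livers, Lgals4 had 6.21 to 17.8 FPKM and Fabp2 6.35 to 117 FPKM. Their summed level was 13.0 to 131 FPKM over the groups, and their part in the Apoa4 values was not tested.

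Apoa5, whose product promotes clearance of triglyceride by lipoprotein lipase, had 566 FPKM (206 to 925) in WT PBS, 555 (215 to 894) in WT ASNase, 703 (252 to 1153) in Gcn2-/- PBS, 811 (179 to 1442) in Gcn2-/- ASNase, 557 (215 to 898) in Atf4-/- PBS and 462 (199 to 725) in Atf4-/- ASNase livers. The ASNase differences were −0.03, 0.21 and −0.27 in the order WT, Gcn2-/- and Atf4-/-, each well inside its combined error of 0.95 to 1.1.

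Of the C apolipoproteins, Apoc1 and Apoc3 were lowest in the Atf4-/- ASNase group and Apoc2 was not. Apoc1, encoding a small inhibitor of lipoprotein clearance, had 12708 FPKM (2422 to 22993) in WT PBS, 9701 (3019 to 16383) in WT ASNase, 15127 (3036 to 27218) in Gcn2-/- PBS, 8437 (2613 to 14260) in Gcn2-/- ASNase, 8744 (2958 to 14529) in Atf4-/- PBS and 4221 (1814 to 6628) in Atf4-/- ASNase livers. Its ASNase difference was −0.39 in WT (combined error 1.14), −0.84 in Gcn2-/- (1.14) and −1.05 in Atf4-/- livers (0.98). Macrophages also express Apoc1. The 9 Kupffer cell and macrophage markers in the table summed to 438, 233, 285, 427, 494 and 302 FPKM in the same order of groups. They did not move together: in Gcn2-/- livers Marco had 8.32 FPKM with PBS and 118 FPKM with ASNase and Lyz2 54.1 and 134 FPKM, whereas Clec4f had 67.3 and 15.9 FPKM and Vsig4 17.7 and 8.56 FPKM. Their part in the Apoc1 values was not tested.

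Apoc3, which encodes an inhibitor of lipoprotein lipase and of remnant uptake, had 3226 FPKM (1225 to 5228) in WT PBS, 2257 (1036 to 3478) in WT ASNase, 2897 (1256 to 4539) in Gcn2-/- PBS, 3812 (1205 to 6419) in Gcn2-/- ASNase, 2687 (1165 to 4209) in Atf4-/- PBS and 1033 (537 to 1530) in Atf4-/- ASNase livers. The strains differed in direction: the ASNase difference was −0.52 in WT (combined error 0.93), 0.40 in Gcn2-/- (0.99) and −1.38 in Atf4-/- livers (0.86). Only the last exceeded its error.

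Apoc2, encoding the cofactor that lipoprotein lipase requires, had 364 FPKM (0 to 769) in WT PBS, 397 (0 to 811) in WT ASNase, 578 (0 to 1186) in Gcn2-/- PBS, 648 (62.9 to 1233) in Gcn2-/- ASNase, 247 (0 to 518) in Atf4-/- PBS and 503 (74.9 to 930) in Atf4-/- ASNase livers. It was higher after ASNase in each strain, by 0.13 in WT (combined error 1.49), 0.17 in Gcn2-/- (1.39) and 1.02 in Atf4-/- livers (1.39), and none of these exceeded the error. Apoc4, which shares its locus in the file, had 1432 FPKM in Atf4-/- PBS and 880 FPKM in Atf4-/- ASNase livers, so its value was lower where that of Apoc2 was higher.

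**Figure D2:**
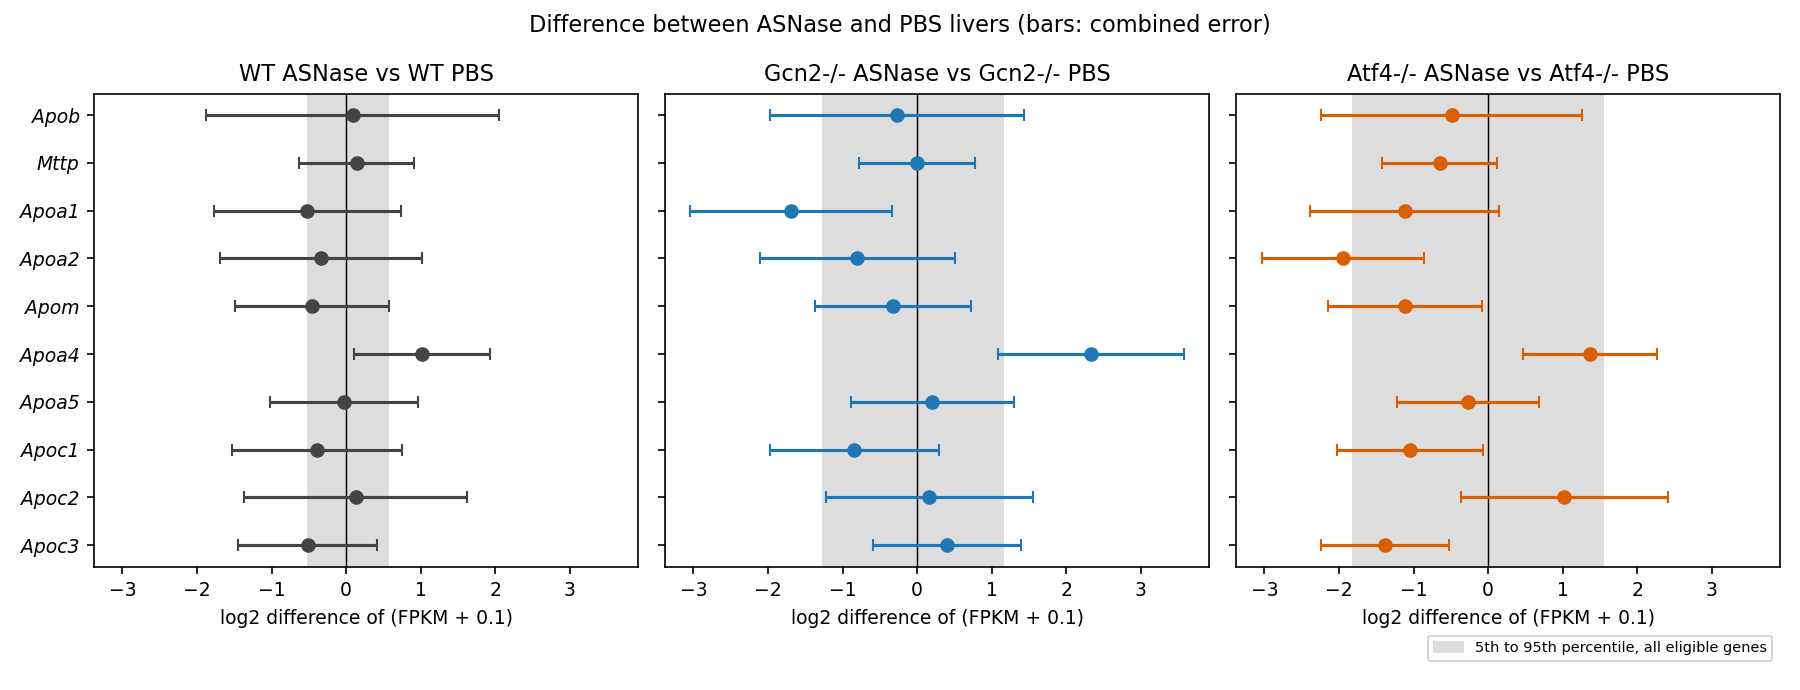
Log2 difference of FPKM + 0.1 between ASNase and PBS livers of each strain for the 10 genes, with bars for the combined error and a grey band from the 5th to the 95th percentile of all eligible genes. The Gcn2-/- livers hold the widest spread, from −1.69 for Apoa1 to 2.33 for Apoa4, and in the Atf4-/- livers 8 of the 10 genes lie below 0.

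Read across the 10 genes, ASNase gave 4 higher and 6 lower values in WT livers, with a median difference of −0.18 where the median of all eligible genes was −0.01. Apoa4 was the only 1 to exceed its combined error, which 3.02% of all eligible genes did. In Gcn2-/- livers 5 were higher and 5 lower, the median was −0.13 against 0.02 for all genes, and 2 exceeded the error (Apoa1 and Apoa4), against 16.3% of all genes, and with the error as a share of the value Apoa1 was within it. In Atf4-/- livers 2 were higher and 8 lower, the median was −0.85 against 0.08 for all genes, and 5 exceeded the error (Apoa2, Apom, Apoa4, Apoc1 and Apoc3), against 25.6% of all genes. With the error taken as a share of the value, Apom (error 1.35) and Apoc1 (1.26) were within it. Beyond the 5th and 95th percentiles of all eligible genes lay Apoa1, Apoc3 and Apoa4 in WT livers, Apoa1 and Apoa4 in Gcn2-/- livers and Apoa2 in Atf4-/- livers. The median of the hepatocyte markers was below 0 as well. The 8, 7 and 6 markers of 10 that were eligible in WT, Gcn2-/- and Atf4-/- livers had a median difference of −0.19, −0.74 and −0.57, and none of them was called. They differed among themselves: in Atf4-/- livers Ttr had 3541 FPKM with PBS and 854 FPKM with ASNase, and Asgr1 had 429 and 419 FPKM. Their part in the values of the 10 genes was not tested.

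Without ASNase the strains differed by less than the combined errors. Gcn2-/- PBS livers had 7 higher and 3 lower values than WT PBS livers, between −0.16 and 0.67, with a median of 0.28 against 0.06 for all genes. The sign of Apom (0.05) turned with median-ratio scaling. Atf4-/- PBS livers had 3 higher and 7 lower values, between −0.56 and 0.30, with a median of −0.05 against 0.00. Apoa4 differed by 0.61 in Gcn2-/- and 0.03 in Atf4-/- livers, and Apoc1 by 0.25 and −0.54. None of the 10 exceeded its combined error in either comparison, which 4.13% and 3.89% of all genes did.

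With ASNase, Gcn2-/- livers had 6 higher and 4 lower values than WT livers, with a median of 0.20 against 0.05 for all genes. Apoa4 alone exceeded its error, at 1.93 (combined error 1.27), against 16.3% of all genes, and it passed the less strict rule. Atf4-/- livers had 2 higher and 8 lower values than WT livers, with a median of −0.67 against 0.07 for all genes. Here 3 of the 10 exceeded the error, against 26.3% of all genes: Apoa2 at −2.0 (1.09), Apoc1 at −1.20 (1.0, or 1.29 as a share of the value) and Apoc3 at −1.13 (0.84). These comparisons share the WT ASNase group.

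Whether strains differed in their response needs the difference of the differences. Of the 30 such values over the 10 genes and 3 pairs of strains, 1 exceeded 1.5 and its combined error. This was Apoc3, where the Atf4-/- response minus the Gcn2-/- response was −1.77 with a combined error of 1.31. Among all genes 5.14% passed the same rule for that pair, 5.79% for Gcn2-/- minus WT and 8.85% for Atf4-/- minus WT. The Apoa4 response was 1.31 larger in Gcn2-/- than in WT livers with an error of 1.55, and the Apoa2 response was −1.61 in Atf4-/- minus WT livers with an error of 1.73. So the larger Apoa4 value of Gcn2-/- livers and the lower Apoa2 value of Atf4-/- livers were not separated from the WT response by these bounds.

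**Figure D3:**
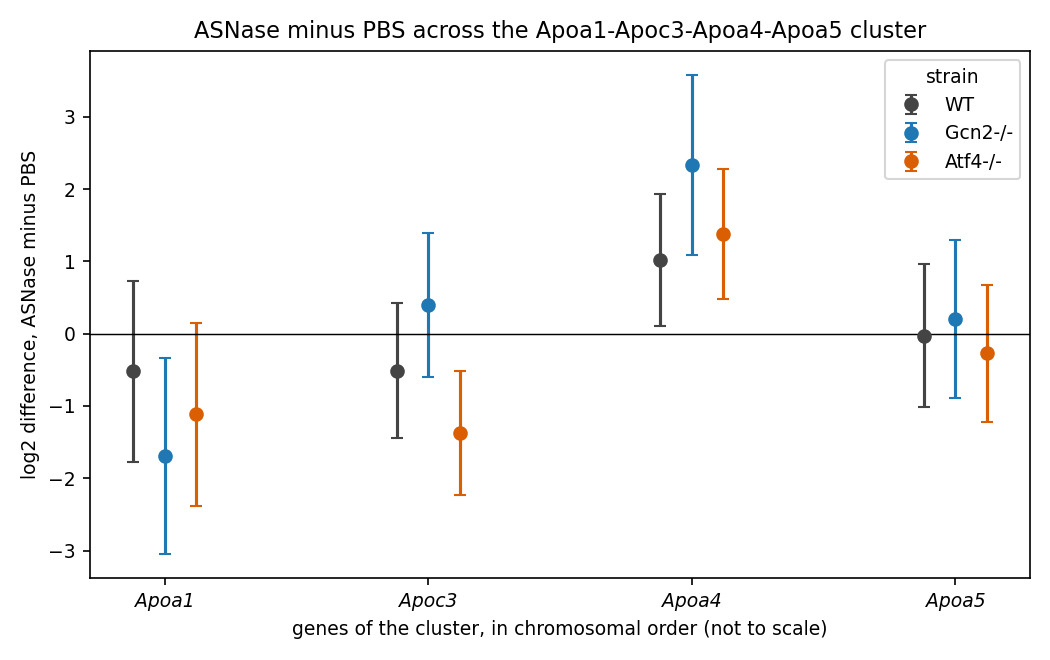
Log2 difference between ASNase and PBS livers for the 4 genes of the chromosome 9 cluster in chromosomal order (not to scale), by strain, with bars for the combined error. In all 3 strains Apoa1 lies below 0 and Apoa4 above 0, whereas Apoc3 lies at 0.40 in Gcn2-/- and at −1.38 in Atf4-/- livers.

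Within the 43.3 kb of the chromosome 9 cluster, Apoa1 was lower and Apoa4 higher after ASNase in every strain. The ratio of Apoa1 to Apoa4 was 158, 142 and 148 in the PBS groups of WT, Gcn2-/- and Atf4-/- mice, and 54.4, 8.67 and 26.3 in the matching ASNase groups. The 3 PBS ratios were close to each other, and each ASNase ratio was lower. Its log2 change was −1.54 in WT (combined error 1.55), −4.03 in Gcn2-/- (1.84) and −2.49 in Atf4-/- livers (1.55). On chromosome 7 the values of Apoc1 were lower and those of Apoc2 higher after ASNase in each strain, but all 3 differences of Apoc2 and those of Apoc1 in WT and Gcn2-/- livers were within their combined errors.

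The transcript of the lipase inhibitor was set against that of the lipase cofactor as the ratio of Apoc3 to Apoc2, with the limits of Apoc2 given above. WT livers had a ratio of 8.86 with PBS and 5.68 with ASNase, Gcn2-/- livers 5.01 and 5.88, and Atf4-/- livers 10.9 and 2.06. The PBS ratios already ranged from 5.01 to 10.9, and the Atf4-/- ASNase ratio was below all of them. The log2 change with ASNase was −0.64 in WT (combined error 1.76), 0.23 in Gcn2-/- (1.71) and −2.40 in Atf4-/- livers (1.63). The ratio of Apoa1 to Apoa2 took the values 0.350 and 0.308 (WT), 0.535 and 0.288 (Gcn2-/-) and 0.439 and 0.777 (Atf4-/-), likewise PBS first, with no change beyond its combined error. These ratios were chosen after their values were seen.

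**Figure D4:**
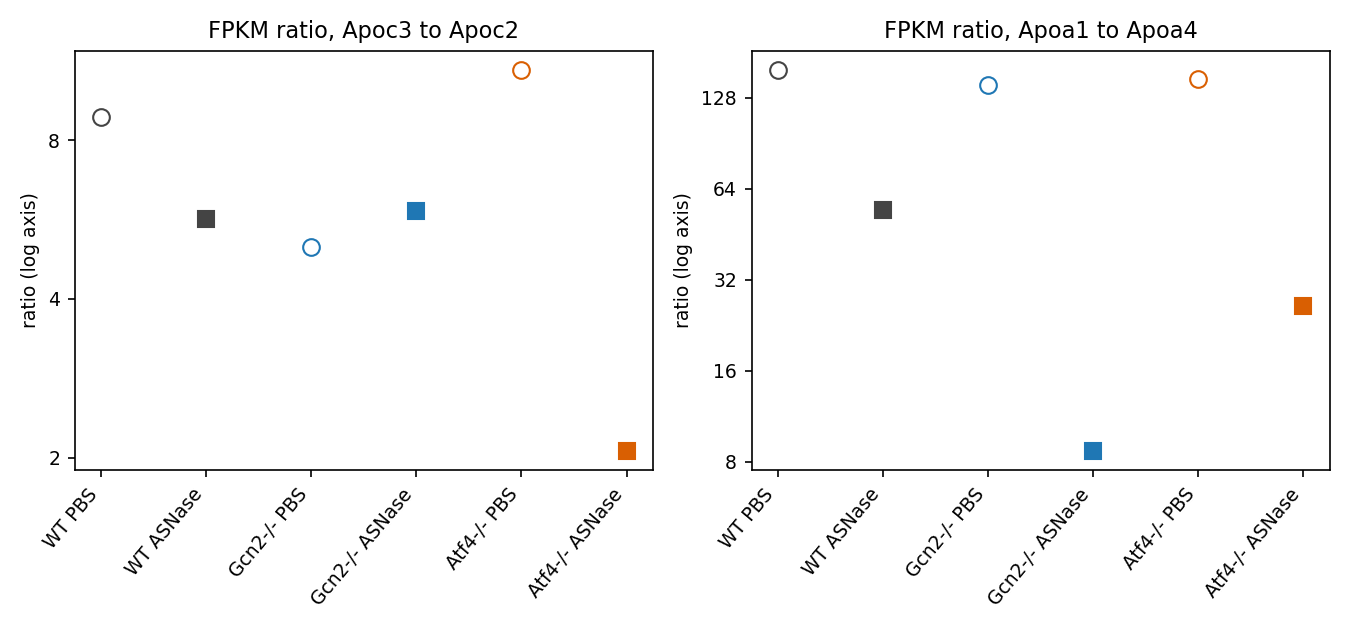
Ratio of FPKM values (log axis) of Apoc3 to Apoc2 and of Apoa1 to Apoa4 in the 6 groups, with open circles for PBS and filled squares for ASNase and no error drawn. Apoc3 to Apoc2 is lowest in Atf4-/- ASNase livers at 2.06, and Apoa1 to Apoa4 is lowest in Gcn2-/- ASNase livers at 8.67.

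The other genes of the pathway were counted from lists, under the rule of separate intervals. For ASNase against PBS that rule called 0.881% of all eligible genes in WT, 3.69% in Gcn2-/- and 7.37% in Atf4-/- livers. The counts below are to be read beside these shares. Of the other apolipoproteins and HDL-bound proteins, none of 11 eligible was called in WT livers after ASNase. In Gcn2-/- livers 1 of 11 was called, Saa4, an HDL apolipoprotein of the serum amyloid A family, at 119 FPKM with PBS and 571 FPKM with ASNase. In Atf4-/- livers 4 of 12 were called, all lower: Apol9a (57.7 and 6.04 FPKM), Apol7a (54.3 and 5.69 FPKM), Apol9b (36.3 and 5.89 FPKM) and the HDL-bound esterase gene Pon1 (log2 difference −2.37). Apol9a and Apol9b are near-identical copies whose reads may be shared.

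Around Apob and Mttp, 20 genes of VLDL assembly and secretion were eligible, and none was called in WT livers. In Gcn2-/- livers 2 were called, both lower: the carboxylesterase gene Ces3a, at 553 FPKM with PBS and 94.7 FPKM with ASNase, and the sorting receptor gene Sort1, at 4.83 and 1.37 FPKM. In Atf4-/- livers 3 were called, all lower, where 7.37% of all eligible genes were called. These were Ces3a at 707 and 15.4 FPKM, Ces1d, a triglyceride hydrolase gene that feeds lipid to VLDL, at 355 and 13.0 FPKM, and Sort1 at 5.68 and 1.20 FPKM. Mttp, in the same livers, had a difference of −0.65.

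Of 17 eligible genes for lipases and lipoprotein remodelling, none was called in WT or Gcn2-/- livers. In Atf4-/- livers 2 were called higher: Soat2, the cholesterol esterifying enzyme of hepatocytes, at 17.2 FPKM with PBS and 103 FPKM with ASNase, and lipoprotein lipase (Lpl), at 7.48 and 40.2 FPKM. Among those called lower there were endothelial lipase (Lipg, 5.20 and 0.0921 FPKM) and hepatic lipase (Lipc, 103 and 9.32 FPKM). Among lipoprotein receptors 0 of 16 were called in WT and 0 of 14 in Gcn2-/- livers. The fatty acid and lipoprotein receptor Cd36 was called higher in Atf4-/- livers, at 17.2 FPKM with PBS and 64.4 FPKM with ASNase.

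Of 23 eligible regulators of apolipoprotein genes, none was called in WT livers. In Gcn2-/- livers the nuclear receptors Nr1d1 (46.6 and 9.33 FPKM) and Nr0b2 (32.3 and 11.1 FPKM) were called lower, against 3.69% of all eligible genes called. In Atf4-/- livers Nr0b2 (24.3 and 1.03 FPKM) and Creb3l3 (125 and 26.0 FPKM) were called lower, 2 of 23, against 7.37% of all eligible genes called. Creb3l3 encodes CREBH, an activator of Apoa4, Apoa5 and Apoc2. In the same livers the ASNase difference was 1.37 for Apoa4, −0.27 for Apoa5 and 1.02 for Apoc2, the last 2 within their combined errors. The amount of active CREBH was not measured here, and its part in these values was not tested. Hnf4a, a general activator of hepatic apolipoprotein genes, had 145 to 213 FPKM in all groups and was not called. A regulator that was not called need not be unchanged. The 23 eligible regulators had a median ASNase difference of 0.13 in WT, −0.03 in Gcn2-/- and −0.45 in Atf4-/- livers. In the PBS livers of either knockout none of the genes of these 5 lists was called against WT. Of all eligible genes 1.04% were called in Gcn2-/- and 1.12% in Atf4-/- PBS livers.

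Genes whose profile over the 6 groups was most like that of a member were sought among 10172 genes by the root mean square difference of centred log2 profiles, over 6 values only. For Apoa4 they included Gm10680 (0.09) and Nrg4 (0.19). For Apoa2 they were Cpt2 (0.06), Pecr (0.08) and Unc119 (0.09). Cpt2, of mitochondrial fatty acid oxidation, had 57.7 FPKM in Atf4-/- PBS and 14.1 FPKM in Atf4-/- ASNase livers. For Apoc3 they were Hsd17b7 (0.09), Palld (0.11) and Pstpip2 (0.15), and Hsd17b7, of cholesterol synthesis, had 20.8 FPKM in Gcn2-/- ASNase and 5.57 FPKM in Atf4-/- ASNase livers.

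The combined error takes the upper side of each interval, which is the shorter one on the log2 scale. Taken as a share of the value instead, it is larger, and the differences above 1.5 that exceed it were Apoa4 in Gcn2-/- livers, Apoa2 in Atf4-/- livers, Apoa4 in Gcn2-/- against WT under ASNase and Apoa2 in Atf4-/- against WT under ASNase. Apoa1 in Gcn2-/- livers was not among them. Of all genes this rule passed 0.991%, 5.39% and 10.05% for ASNase in WT, Gcn2-/- and Atf4-/- livers, 1.20% and 1.52% for Gcn2-/- and Atf4-/- against WT with PBS, and 5.95% and 11.1% for the same strains against WT with ASNase. The Apoc3 difference between the Atf4-/- and Gcn2-/- responses, −1.77, exceeded its error of 1.67 so taken.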

How the data were processed

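The authors aligned reads of poly-A RNA libraries (single-end) to mm10 with TopHat and estimated expression with Cuffdiff, as named in the submitters' processing notes and the study's methods. The deposited table holds FPKM values and conf_lo and conf_hi bounds, 1 per gene and group. The read depth of a library is not in the table, so no interval from counts was made. Columns outside the 6 groups: none. From the deposited FPKM, log2 ratios were computed in Python 3.11.15 (numpy 2.4.6, pandas 2.3.3) with a pseudocount of 0.1, which understates the change of low genes. The limits of 3 FPKM and 1.5 on the log2 scale follow the study's methods. The study also set a limit on the false discovery rate of its own comparisons. Here the intervals stood in its place, so these calls are not those of the study. The 3 mice of a group enter only through Cuffdiff's bounds, and no comparison was tested. The 10 genes and the gene lists were chosen with earlier results of these data known. List genes are named when called in an ASNase comparison, up to 3 per list and direction, except a few that are not reported here, and Pon1 was added after its value was seen. Alternatives were other pseudocounts, FPKM and fold limits, error rules and median-ratio scaling. Protein sequences were not used here.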

Additional observations from a re-analysis of the deposited data

How the results depend on the processing

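No member of the 10 was called in any comparison under separate intervals. Another pseudocount (1 or 0.01), FPKM minimum (1 or none) or fold limit (1 on the log2 scale) could not alter this, since it rests on overlapping intervals, and the count was also 0 with median-ratio scaling. Under the combined error 2 members were called for ASNase in Gcn2-/- livers, 1 for ASNase in Atf4-/- livers, 1 for Gcn2-/- against WT under ASNase and 1 for Atf4-/- against WT under ASNase. With the error as a share of the value, a choice made after seeing the data, the counts were 1, 1, 1 and 1 in the same order. Both give more calls because intervals that overlap can still hold values further apart than their combined error. Among the 140 values obtained when each log2 difference was recomputed with a pseudocount of 1 and with scaling, 1 changed sign (its size was 0.05) and the largest shift was 0.07. No paired analysis was possible because the table holds 1 value per group. For the same reason no replicate could be left out. Wide bounds, above all those of Apob and Apoc2, limit what could be seen.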
